A study of Mus musculus with 30 samples.

Results

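The genes described here were Myb and 5 genes of the MYC network, Myc, Mycn, Mycl, Max and Mxd1, followed through chromatin immunoprecipitation with sequencing (ChIP-seq) of mouse Hoxa9 cell lines in a study of myeloid differentiation. They were taken from a fixed list of names, and all 6 were found among the 21631 protein-coding genes of the RefSeq table for GRCm38.p6 on chromosomes 1 to 19 and X. For each gene the length covered by H3K4me3 peaks was summed over the gene and 1 kb on either side. Sites of tagged HOXA9 were counted within 100 kb of the gene.

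All cells were of strain C57BL/6, cultured with stem cell factor conditioned medium. H3K4me3, a histone mark of active promoters, was mapped in ER-Hoxa9-Lys-GFP cells, which carry HOXA9, a transcription factor of blood progenitors, joined to an estrogen receptor (ER) domain that keeps it active while estradiol (E2) is present. There were 5 conditions: E2 throughout, withdrawal of E2 for 24 h followed by 96 h with E2 restored, 40 h followed by 80 h, 72 h followed by 48 h, and 120 h of withdrawal with no restoration. Below, 24, 40 and 72 h name the restored conditions. The length of withdrawal and the time back in E2 moved together, and their effects cannot be told apart. HOXA9 itself was mapped by ChIPs titled V5 and AM in untreated V5-Hoxa9-AM cells and in V5-ER-Hoxa9-AM cells kept in E2, and by V5 in V5-ER-Hoxa9-AM cells after 72 h of withdrawal and 48 h of restored E2. Both of these AM samples carry V5 as their antibody label. V5 and AM ChIPs of V5-ER-Hoxa9-AM cells after 96 h without E2 had no peak list here. No site list is therefore from V5-ER-Hoxa9-AM cells without E2. Whether a line was a single clone is not given in the sources used here.

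Each condition had 1 library. Differences therefore have no replicate check, and no p-value is given. A gene was called higher or lower where its covered length, plus a pseudocount of 50 bp, differed at least 2-fold, and each count is set beside the share of all genes called in the same way. The H3K4me3 lists held 17497 to 23835 peaks and covered from 10352 kb in E2 to 17300 kb at 120 h, so a typical gene was longer covered at 120 h: the median log2 ratio over the 11594 genes with a peak in either list was 0.59. The lists of tagged HOXA9 held from 258 to 17006 sites. The depth in reads is unknown here, and lengths of called peaks carry no counting interval. The labels call the cells only cultured in vitro. By their H3K4me3 in E2 they had peaks at 8 of 8 progenitor marker genes, 0 of 8 mature neutrophil genes, 0 of 6 monocyte and macrophage genes, 0 of 4 lymphoid genes and 1 of 4 erythroid genes. At 120 h the counts were 8, 7, 6, 1 and 2. Of all genes, 47.1% had a peak in E2 and 53.2% at 120 h. Among the 8 progenitor genes, Mpo and Cd34 were called lower at 120 h and Spi1 higher, where 1.35% and 32.6% of all genes were. The part of a changed cell mixture in the values below was not tested.

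MYB is a DNA-binding transcription factor that keeps haematopoietic progenitors proliferating and immature, and Myb is a known target gene of HOXA9. MYC, MYCN and MYCL are related basic helix-loop-helix leucine zipper factors that bind E-box sequences only as partners of MAX and drive genes of growth and ribosome synthesis. MXD1 also pairs with MAX but recruits repressors to the same sequences, and it is known to rise as myeloid cells mature.

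The promoters of Myb, Mycn and Mxd1 are shown because these genes had the longest H3K4me3 coverage of the 6, peaks in E2 but none at 120 h, and a coverage highest at 120 h, respectively. The RefSeq table of promoters (GRCm38.p6, 250 bases before and 50 after a start site) held 5 of the 6 genes. Myc is named only. The 250 bases before the start site are printed 5′ to 3′ along the gene, all on the minus strand, with capitals for matches to TTTATGG (a core sequence of posterior HOX proteins), CACGTG (the E-box of MYC and MAX) and TTTGGCG (a core sequence of E2F factors), searched on both strands. The E2F core was added after the sequences had been read.
Myb, chr10:21160985-21161234: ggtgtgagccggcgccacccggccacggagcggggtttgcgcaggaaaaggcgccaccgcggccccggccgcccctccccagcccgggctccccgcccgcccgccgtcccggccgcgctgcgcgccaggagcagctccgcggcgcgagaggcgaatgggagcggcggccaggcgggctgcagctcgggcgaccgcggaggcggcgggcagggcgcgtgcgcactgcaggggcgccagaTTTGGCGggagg
Mycn, chr12:12941837-12942086: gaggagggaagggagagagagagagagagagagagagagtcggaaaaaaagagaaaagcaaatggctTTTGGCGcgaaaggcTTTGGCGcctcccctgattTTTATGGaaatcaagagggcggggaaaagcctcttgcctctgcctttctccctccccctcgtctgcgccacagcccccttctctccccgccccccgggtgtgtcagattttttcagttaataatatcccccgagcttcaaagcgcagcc
Mxd1, chr6:86669160-86669409: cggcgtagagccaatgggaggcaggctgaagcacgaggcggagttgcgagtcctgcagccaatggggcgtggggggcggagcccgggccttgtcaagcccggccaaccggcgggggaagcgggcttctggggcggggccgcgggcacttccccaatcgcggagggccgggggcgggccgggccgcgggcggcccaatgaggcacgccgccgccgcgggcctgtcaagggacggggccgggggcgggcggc
Counting back from the start site, the Myb promoter held the E2F core at base 12, and the Mycn promoter held it at bases 183 and 168 and the HOX core at base 149. The search found no match in the Mxd1 and Mycl windows. In the Max window an E-box began 3 bases before the start site and ran across it. Of the 32851 promoter windows in the table, 1.56% held the E2F core, 2.75% the HOX core and 7.15% the E-box. These matches describe the sequence and are not binding sites.

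Myb had one of the longest H3K4me3 coverages of any gene. Its peaks covered 5971, 5851, 5958, 6545 and 4428 bp in the E2, 24, 40, 72 and 120 h lists. The E2 and the 3 restored lists lay close together, and the 120 h list was the lowest. In E2 this placed Myb (chromosome 10, 21124930 to 21160984) at rank 10 of 21631 genes, and it stood at ranks 28, 31 and 13 in the 24, 40 and 72 h lists and at rank 204 at 120 h. The log2 ratio of 120 h over E2 was -0.43, short of the 2-fold call. Of the 11594 genes, 3.48% had a ratio as low or lower (9.29% with peaks within 1 kb joined). Counted within 1 kb of the gene ends, the share was 33.5% of 10323 genes.

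The difference at Myb lay inside the gene. After peaks within 1 kb were joined, the domain over the start site was 6515, 6963, 7025, 6976 and 3783 bp wide in the same 5 lists. It ran 5846 bp into the gene in E2, 5624, 5794 and 5991 bp in the 3 restored lists, and 2985 bp at 120 h. Upstream of the start site it reached 668 bp in E2 and 797 bp at 120 h, so the difference lay at the downstream edge. The width ratio had a log2 of -0.78, and 1.98% of the 10096 genes with a domain in both lists narrowed as much, where the median was 0.28. This measure was added after the data had been seen. Counted within 1 kb of the gene ends alone, Myb went the other way, from 1182 bp in E2 to 1515 bp at 120 h (log2 0.35). That window leaves out the downstream part of the domain.

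At 120 h Myb also carried 3 peaks that had no counterpart in the other 4 lists. They were 297, 425 and 206 bp wide and lay between 14488 and 16084 bp downstream of the start site. The nearest of them to the start site, chr10:21146200-21146496, overlapped a V5 site of V5-Hoxa9-AM cells. Such overlap inside Myb was not limited to 120 h. At 24 h the peak chr10:21153120-21153319 overlapped another site, in the V5 and AM lists of those cells, over 153 bp. The 300 bp promoter window itself was covered over 9, 29, 14, 94 and 177 bp in the E2, 24, 40, 72 and 120 h lists. The gap between peaks at the start site was thus narrower at 120 h.

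Myc, like Myb, was shortest covered at 120 h. Its peaks covered 4775, 4954, 5064, 4914 and 3814 bp in the E2, 24, 40, 72 and 120 h lists. Again the first 4 lists were close together and 120 h was the lowest. Myc (chromosome 15, 61985341 to 61990361) stood at rank 24 of all genes in E2, at ranks 56, 55 and 55 in the restored lists and at rank 352 at 120 h. The log2 ratio of 120 h over E2 was -0.32, within 2-fold, and 4.93% of genes had a ratio as low or lower (7.56% with the 17497 widest peaks of each list and 10.1% with peaks above the median width). In the comparisons of 24, 40 and 72 h with E2 the shares as low or lower were 21.4%, 17.6% and 8.07%. By this measure Myc at 72 h was close to its place at 120 h. In E2 and the restored lists the peaks spanned nearly the whole gene, reaching 4635 to 4678 bp from its lower-coordinate end, against 3061 bp at 120 h. The peak that ended there in E2, chr15:61988563-61989976, had no counterpart at 120 h. The tables used here give no strand for Myc.

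Genes covered as long as Myc in E2 were few, and not all were shorter covered later. Myb and Myc were among the 24 genes with 4775 bp or more. Of the 24, 15 (62.5%) were shorter covered at 120 h, and the median log2 ratio of the 24 was -0.11.

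**Figure D1:**
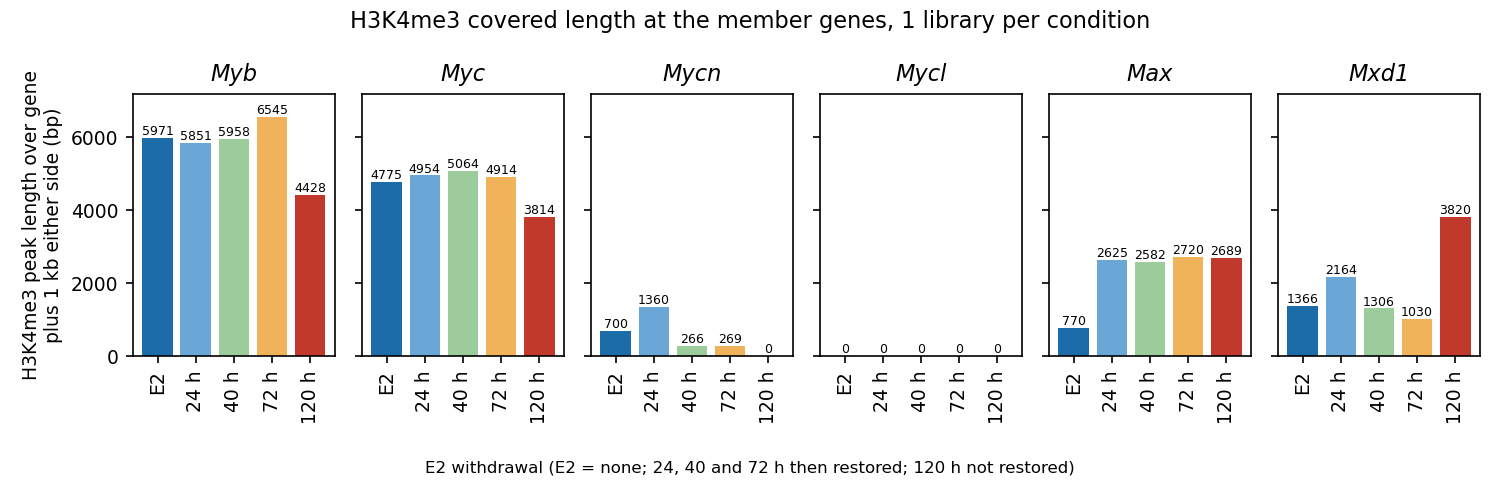
H3K4me3 covered length in bp (vertical axis) over each gene and 1 kb on either side, for the 5 conditions on the horizontal axis, 1 bar per library. Myb and Myc are lowest at 120 h (4428 and 3814 bp), Mxd1 is highest there (3820 bp), Mycn is at 0 bp there, Max is low in E2 only (770 bp), and Mycl is at 0 bp throughout.

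Mycn had short H3K4me3 peaks in 4 lists and none at 120 h. They covered 700, 1360, 266, 269 and 0 bp in the E2, 24, 40, 72 and 120 h lists. The lists of E2 and 24 h held the most, 40 and 72 h held 1 short peak each, and none was listed at 120 h. In E2, at 24 h and at 40 h the peaks lay downstream of the start site, from 421 to 1780 bp into the gene (chromosome 12, 12936093 to 12941836). The single peak at 72 h, chr12:12942245-12942513, lay upstream instead, from -677 to -409 bp relative to the start site. The promoter window held 0 bp of peaks in all 5 lists. Mycn was the 1 gene of the 6 called lower at 120 h, where 1.35% of all genes were, and as the 120 h list stood at 0 no fold is given. Against E2 it was called lower at 40 h (log2 -1.25, where 0.9% of genes were called lower) and at 72 h (log2 -1.23, where 1.09% were). Both of those calls ended with a pseudocount of 200 bp, and with peaks above the median width of their lists Mycn had 0 bp in E2 as well.

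Mycl (chromosome 4, 122995588 to 123002490), more restricted in its expression than Myc, had no H3K4me3 peak in any of the 5 lists.

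Max, the shared partner of the MYC and MXD proteins, was low in E2 alone. Its peaks covered 770, 2625, 2582, 2720 and 2689 bp in the E2, 24, 40, 72 and 120 h lists. The 4 lists after withdrawal were alike, and the E2 list was well below them. The log2 ratios over E2 were 1.71, 1.68, 1.76 and 1.74, each called higher, where 17.2%, 17.9%, 24.8% and 32.6% of all genes were called higher in the same comparisons. Max (chromosome 12, 76937269 to 76962323) had the same 3 places marked in E2 as later, one upstream of the start site, one just inside the gene and one from 4096 bp downstream, with 218 to 284 bp at each in E2. When peaks within 1 kb were joined, the length at Max was 1713 bp in E2 against 3195 bp at 72 h, and its calls at 24, 40 and 72 h ended.

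Mxd1, which encodes the MYC antagonist, had its longest H3K4me3 at 120 h. It covered 1366, 2164, 1306, 1030 and 3820 bp in the E2, 24, 40, 72 and 120 h lists. The 120 h list was the highest, and of the others 24 h was the longest. The log2 ratio of 120 h over E2 was 1.45, a call that 32.6% of all genes shared. The ratio of 72 h over E2 was -0.39, and 1.93% of genes had one as low or lower in that comparison, where the median gene was at 0.54. That direction turned with peaks within 1 kb joined (1573 bp in E2 against 1807 bp at 72 h) and within 1 kb of the gene ends (620 against 862 bp). Set against 120 h, Mxd1 was called lower at 40 h (log2 -1.51, where 15.3% of genes were called lower) and at 72 h (log2 -1.84, where 9.08% were), and at 24 h the ratio was -0.81. At the gene ends alone the 72 h call ended, with 862 bp against 1313 bp at 120 h. Its ranks among all genes in those lists were 2826, 1264, 5337, 7841 and 346. At 120 h a single peak of 2821 bp ran from -27 to 2793 bp relative to the start site of Mxd1 (chromosome 6, 86647044 to 86669234). In E2 the main peak was 1148 bp wide and began 306 bp after the start site.

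**Figure D2:**
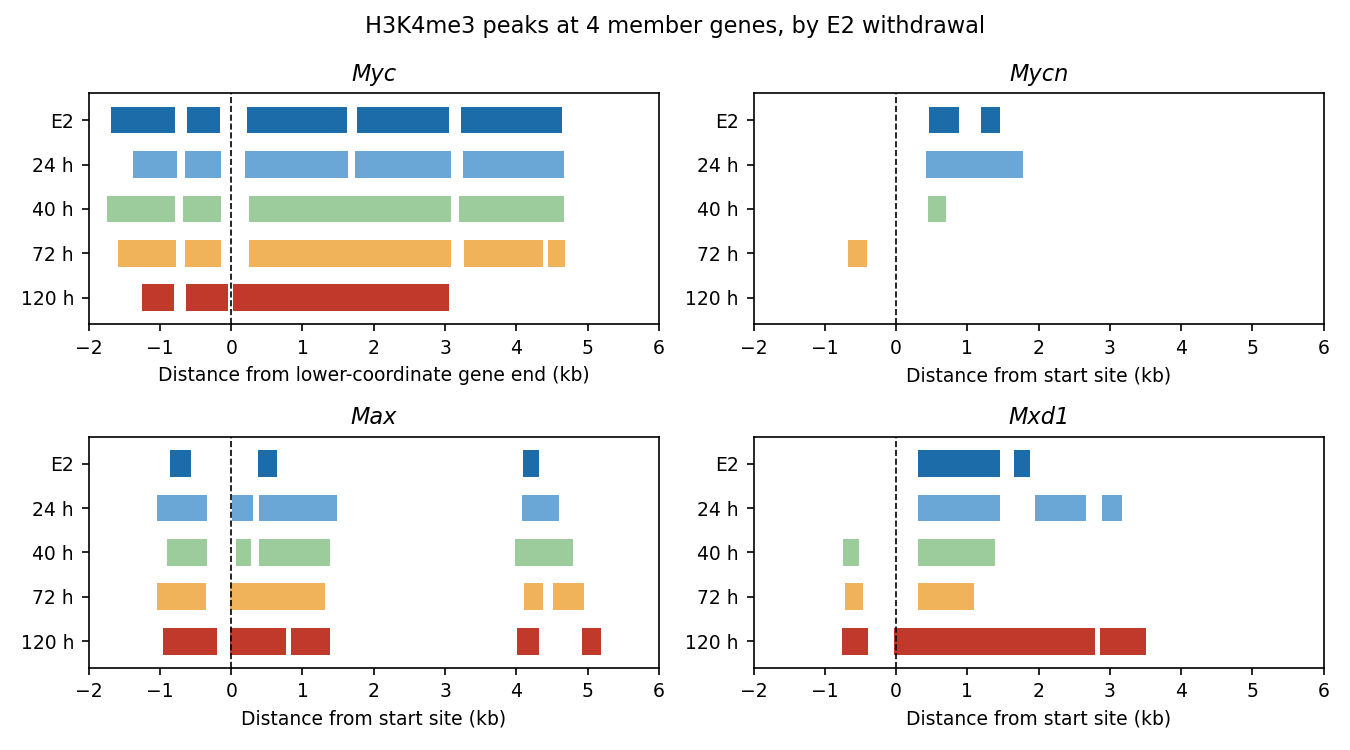
H3K4me3 peaks as bars along Myc, Mycn, Max and Mxd1, with distance in kb on the horizontal axis (from the start site in the direction of transcription, or for Myc from the lower-coordinate end) and 1 row per condition. The downstream peak of Myc is missing at 120 h, Mycn has no peak at 120 h and an upstream one at 72 h, and the Mxd1 domain reaches 3504 bp at 120 h.

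At 24 h against E2 no member was called lower, where 1.08% of all genes were. Against 120 h, no member was called lower at 24 h (15.7% of all genes were) and Mxd1 alone at 40 and 72 h, and Mycn alone, at 0 bp at 120 h, was called higher at 24, 40 and 72 h, where 3.16%, 3.11% and 2.56% of all genes were. Between the 40 and 72 h lists none of the 5 genes with peaks changed 2-fold. Over all genes 2.49% were called lower and 6.67% higher in that comparison. The median log2 ratio of the 5 genes was 0.01 and that of all genes 0.11.

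**Figure D3:**
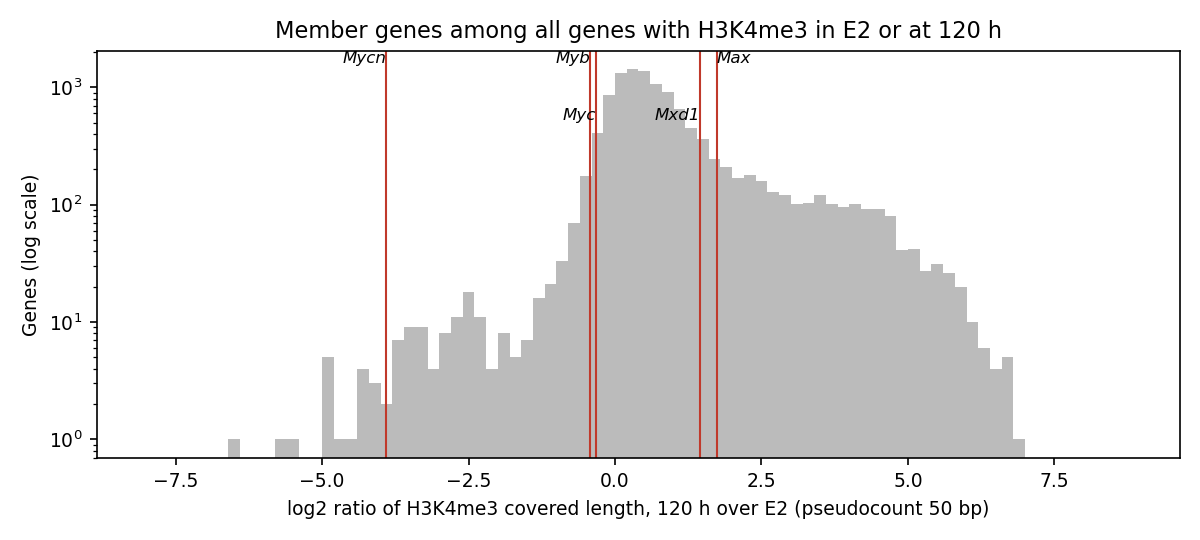
Histogram of the log2 ratio of H3K4me3 covered length, 120 h over E2 (horizontal axis, pseudocount 50 bp), over 11594 genes (vertical axis, number of genes on a log scale), with red lines at 5 member genes. Mycn, Myb and Myc lie to the left of the median of 0.59, and Max and Mxd1 to the right.

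Tagged HOXA9 was listed within 100 kb of 5 of the 6 genes in the V5-Hoxa9-AM V5 list, where 69% of all genes had such a site, and of 4 in its AM list, where 50.5% did. In V5-ER-Hoxa9-AM cells Myb alone had a site: in the V5 list of E2 (13.5% of all genes), in the AM list of E2 (2.64%) and in the V5 list of 72 h (4.3%). Those 3 lists were short, and the V5-Hoxa9-AM counts, 5 and 4 of 6 genes, are near the shares of all genes. Mycn had no site in the 5 lists. In all, 26 distinct sites lay near members, 17 of them in 1 list only. Sites recur with identical coordinates between lists (98.8% of the AM sites of V5-ER-Hoxa9-AM cells are sites of its V5 list), so overlap between lists describes the deposited lists and not separate measurements of position.

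Myb had the most sites of the 6. The V5-Hoxa9-AM V5 list gave 11 within 100 kb, and 1.64% of all genes had as many. The AM list of the same cells held 4 (6.34% of genes had as many). The V5-ER-Hoxa9-AM lists gave 3 in E2 by V5 (0.74%), 2 in E2 by AM (0.31%) and 1 at 72 h by V5 (4.30%). Where Myb had to be the nearest protein-coding gene, each V5-ER-Hoxa9-AM list gave 0. The V5-Hoxa9-AM lists then gave 6 by V5 and 2 by AM. A gene of 36055 bp has a wider window than a short one, and the shares take no account of gene length.

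The sites at Myb fell into 3 places. Within the gene, 4 V5 sites lay 7.66 to 14.46 kb downstream of the start site, beyond the end of the H3K4me3 domain in E2. The 2 closest to the domain, chr10:21152435-21152970 and chr10:21153167-21153482, were also in the AM list of V5-Hoxa9-AM cells. Upstream, toward Hbs1l, whose interval with Myb is known to hold Myb enhancers, single V5 sites lay 24156 and 80939 bp from Myb in V5-Hoxa9-AM cells and 67479 bp from it in V5-ER-Hoxa9-AM cells in E2. The remaining 5 lay beyond the downstream end of Myb.

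One site in that last place, chr10:21083410-21084117, was in all 5 V5 and AM lists. It was 708 bp wide and lay between Myb and Ahi1, a ciliary protein gene, 40813 bp from Myb and 2981 bp from Ahi1. Only 90 of 17928 distinct sites were in all 5 lists, and 1.13% of all genes had one within 100 kb. H3K4me3 overlapped it over 48 bp in E2, 0 bp in the restored lists and 184 bp at 120 h. A second site, chr10:21054751-21055138 inside Ahi1, was in both E2 lists of V5-ER-Hoxa9-AM cells and in the V5-Hoxa9-AM V5 list, and was not in the 72 h list. H3K4me3 at Ahi1 itself covered 490, 2171, 1279, 1630 and 1940 bp in the E2, 24, 40, 72 and 120 h lists. The log2 ratio of Ahi1, 120 h over E2, was 1.88, a call that 32.6% of all genes shared. Ahi1 is the nearest gene to the site in all 5 lists, and which gene the site acts on was not tested.

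**Figure D4:**
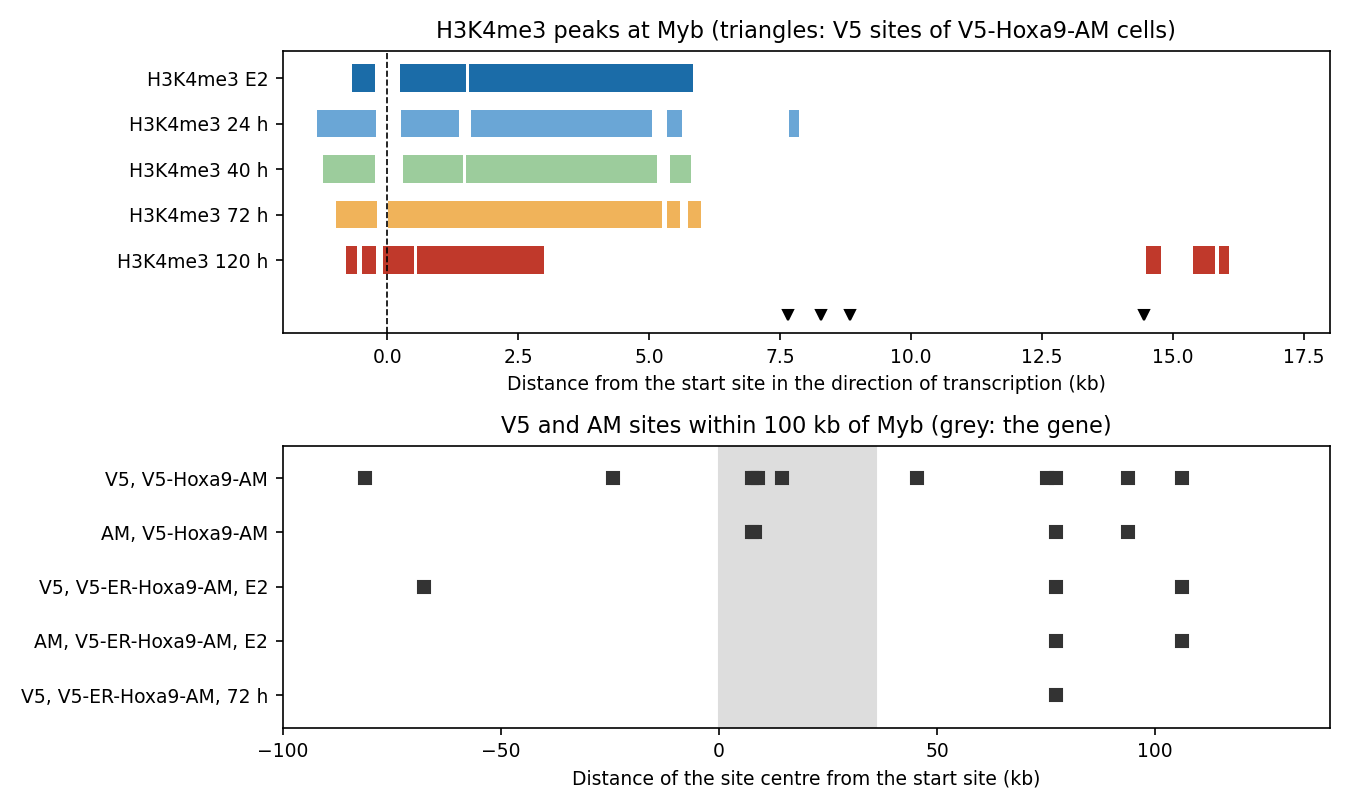
Upper panel: H3K4me3 peaks at Myb as bars, distance from the start site in kb on the horizontal axis, 1 row per condition, with triangles at V5 sites of V5-Hoxa9-AM cells. Lower panel: squares mark V5 and AM sites within 100 kb of Myb (grey), 1 row per list. The domain ends at 2985 bp at 120 h and at 5624 to 5991 bp in the other lists, and the site centred 77.2 kb downstream is in all 5 lists.

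Myc had sites at its lower-coordinate end and none further within 100 kb. The site chr15:61985484-61985831 lay inside the gene, near its lower-coordinate end, and was in the V5 and the AM list of V5-Hoxa9-AM cells. A second, chr15:61984945-61985200, lay 141 bp outside the gene and was in the AM list only. Both overlapped H3K4me3 in all 5 conditions, the inner one over 237 to 348 bp. No site of V5-ER-Hoxa9-AM cells lay within 100 kb of Myc.

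Max had 6 V5 sites in V5-Hoxa9-AM cells, a number that 13.3% of genes reached. One lay inside the gene, 11.7 kb from the start site, and the other 5 lay 57692 to 97950 bp from the gene, on its upstream side. The outermost, chr12:77060273-77060604, was also in the AM list and overlapped H3K4me3 over 285 to 332 bp in each list but that of E2. Mxd1 had 5 V5 sites in V5-Hoxa9-AM cells (19.7% of genes had as many), all on its downstream side and 7530 to 53197 bp from the gene, of which the farthest, chr6:86593188-86593847, was in the AM list as well. None of the 5 overlapped H3K4me3. For 4 of the 5 the nearest protein-coding gene was Gm46963, which lies beside Asprv1, a skin protease gene. Both had no H3K4me3 in E2 or the restored lists, and at 120 h Gm46963 covered 193 bp and Asprv1 455 bp. Mycl had 1 V5 site in V5-Hoxa9-AM cells, 72455 bp away and closer to Mfsd2a, a lipid transporter gene without H3K4me3 in the 5 lists.

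The other neighbours within 100 kb, Trit1 of Mycl, Fntb of Max, and Anxa4, Gmcl1 and Snrnp27 of Mxd1, stayed within 2-fold between E2 and 120 h, with log2 ratios from -0.43 at Trit1 to 0.79 at Anxa4.

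For comparison, 60 other genes of the MYB and MYC network were examined in 8 roles. The roles were listed with earlier results of these data known, so their counts and medians are a description only. All 60 matched, and 58 had H3K4me3 in E2 or at 120 h. Of these, 12 were called higher and 2 lower at 120 h, where 32.6% and 1.35% of all genes were, and their median log2 ratio was 0.36 against 0.59. The group of MAX partners and relatives held 6 of the 12 higher genes, out of 8 tested, with a group median of 1.32. They were Mga (0 bp in E2 and 2373 bp at 120 h), Mlxipl (0 and 318 bp), Mnt (1078 and 3185 bp), Mxd3 (472 and 1258 bp), Mxi1 (2576 and 6490 bp) and Mlx (539 and 1227 bp). MNT, MXI1 and MXD3 are, like MXD1, repressive partners of MAX, and MLX is a related factor that pairs with some of them. MLXIP and MLXIPL are partners of MLX and not of MAX. The 2 others, Mxd4 and Mlxip, had log2 ratios of 0.55 and 0.98.

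Of this group, Mxi1 covered 3371, 4466 and 5208 bp at 24, 40 and 72 h, and Mnt 2183, 2813 and 2844 bp. Both were longer covered than in E2 in every restored list, as was each other gene listed in the group. The median of all genes was longer covered as well, with log2 ratios over E2 of 0.35, 0.40 and 0.54. Mxd1 was longer covered than in E2 at 24 h but not at 40 and 72 h by summed peaks, and its joined domain was wider in all 3 (2870, 2136 and 1807 bp against 1573 bp).

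The counts of the remaining roles stand against the same shares of all genes, 32.6% higher and 1.35% lower. Of 18 growth genes that MYC is known to activate, 2 were called higher and 0 lower, with a median log2 ratio of -0.03. The 2 were Eif4e and Rrn3 (log2 1.03 each), named here because they complete the count. Nop58, a nucleolar protein gene, went from 2428 to 1250 bp (log2 -0.93) and Slc7a5, an amino acid transporter gene, from 2138 to 1069 bp (log2 -0.97), both short of 2-fold and both named after their values were seen. Tfap4 went the other way, from 1400 to 2617 bp (log2 0.88), and so did Hk2, from 2051 to 3771 bp (log2 0.86). These, too, were short of 2-fold and named after their values were seen. Huwe1 and Fbxw7 were called higher among 7 genes listed for MYC turnover (log2 2.07 and 1.39). Crebbp, a co-activator of MYB, was called higher among 3 MYB cofactors (log2 1.77), and Wdr5, a chromatin cofactor of MYC, among 9 (log2 1.66). Neither Mybl1 nor Mybl2, the relatives of Myb, passed 2-fold (log2 0.36 and 0.54). Of 4 genes with peaks among those repressed by MYC, 0 were called in either direction.

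Progenitor genes known as MYB targets had the lowest median, -0.49 over 7 genes with peaks. The 2 called lower were Mpo, which encodes myeloperoxidase (5894 bp in E2, 6782 bp at 72 h and 1270 bp at 120 h), and Cd34, a surface protein of progenitors (4628, 3138 and 1053 bp). No gene of the 7 was called higher. Of the 8 listed genes, 4 are also among the progenitor markers. Mpo and Gfi1, like Myb, were longest covered at 72 h. Kit, Flt3 and Ccnb1 were longest covered at 24 h, and Cd34 and Bcl2 at 40 h. Those not called are named here to complete the 7.

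**Figure D5:**
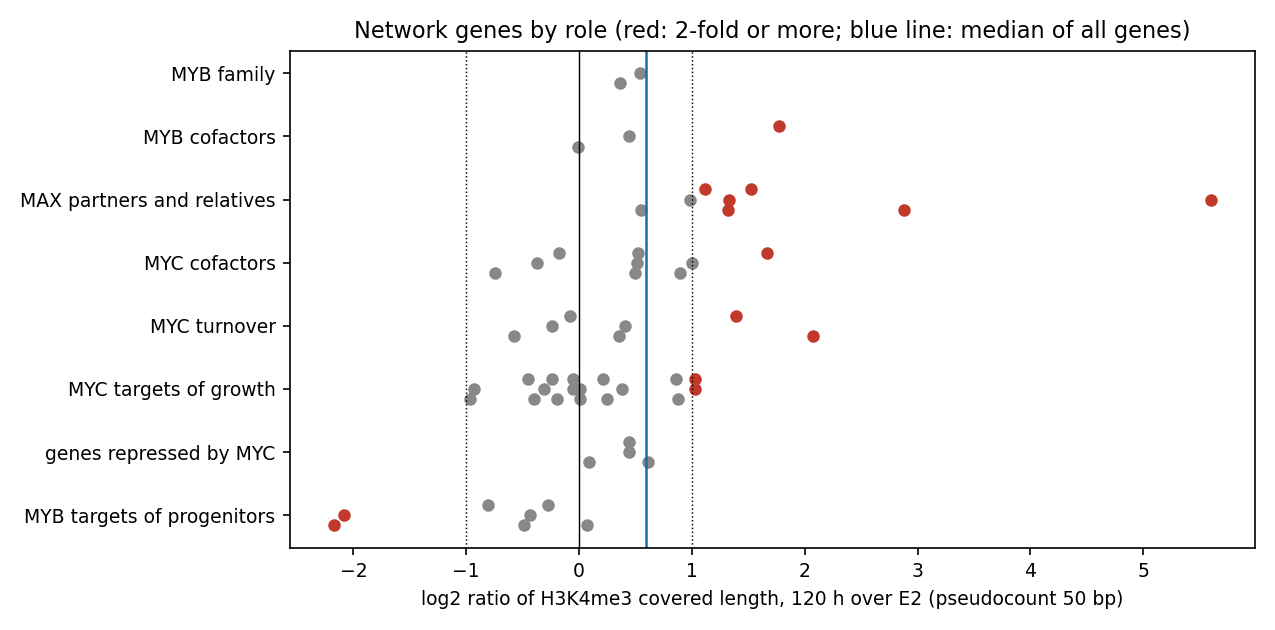
The log2 ratio of H3K4me3 covered length, 120 h over E2 (horizontal axis, pseudocount 50 bp), for 58 network genes in 8 roles (vertical axis, points spread for legibility), with red for 2-fold or more. The blue line is the median of all genes, 0.59; 6 of the 8 MAX partners and relatives lie at 2-fold or beyond, and all 7 progenitor targets of MYB lie to the left of the blue line.

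The genes whose covered lengths were most like each member over the 5 lists were found by Euclidean distance of log2(bp + 50), as a description with no test. For Myb they were Scd2, Hnrnpf and Gm21992 (distances 0.37, 0.45 and 0.47), for Myc Trip4, Rsbn1l and Slc3a2 (0.26, 0.28 and 0.30), and for Max Itpr1, Slc38a1 and Dnmbp (0.22, 0.36 and 0.37). Those of Mxd1, Gcnt2, Arap1 and Slc2a3, were farther (0.59, 0.62 and 0.72), and those of Mycn, Pcdhb16, Ptprcap and Rtn4rl2, the farthest (1.58, 1.78 and 1.81). The gene nearest to Mxd1 in pattern, Gcnt2, covered 1391, 1184 and 2883 bp in E2, at 72 h and at 120 h. Ptprcap, a lymphocyte phosphatase-associated protein gene, covered 787, 235 and 0 bp in the same lists.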

How the data were processed

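The deposited files are peak lists of 3 columns, chromosome, start and end, with no score, height or p-value. Their unit was taken as other, coordinates of called peaks as the authors deposited them, and 10 lists from 30 samples were used for the genes. Bowtie2 2.0, BWA, MACS2 2.0 and the builds mm9 and mm10 are named per the submitters' processing notes. For each file the aligner, build, threshold, input and pooling are not given in the sources used here.

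Builds were inferred from the coordinates. H3K4me3 peaks lay within 1 kb of a protein-coding gene end in 58.5 to 69.3% of cases and in at most 9.53% after a shift of 100 kb, and V5-Hoxa9-AM sites in 11.7% (V5) and 16.4% (AM) against 5.66% and 5.83%, so they were treated as GRCm38. The shorter V5-ER-Hoxa9-AM lists gave no such contrast and were placed by the coordinates they share with those lists (76.1%, 79.5% and 97.2% of sites). The 11 H3K27ac and H3K27me3 lists gave 6.18 to 11.0% against 6.58 to 11.6% and were not placed on genes.

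A site was counted from 1 bp of overlap. Covered length was computed in Python 3.11.15 with numpy 2.4.6 and tested on simulated peaks. No statistical test was run: each condition has 1 library. The members and all lists were chosen with earlier results of these data known. Named were the 6 members, at most 10 network genes per direction past 2-fold, the 3 genes nearest each member in pattern, and neighbours within 100 kb; others are named as chosen after their values were seen. The planned ranking by score was replaced by peak width. Exons and introns were not used here.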

Additional observations from a re-analysis of the deposited data

How the results depend on the processing

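With 1 library per condition no replicate could be left out. No paired analysis was possible because each condition had 1 library. Results were recomputed under other regions, peak sets, pseudocounts, folds and distances; of 181 values, 130 stayed on their side of the call or within 1.5 times, 51 did not and 0 called ratios changed sign. Max and Mxd1 were called higher at 120 h under each of the 8 other H3K4me3 settings, where 27.1 to 50.4% of all genes were. With 1 kb around the gene ends, 0 members were called lower at 40 h or 72 h (1 each in the report), and Myb had a log2 ratio of 0.35 instead of -0.43. With peaks above the median width, 0 members were called lower at 40, 72 or 120 h and 2 higher at 24 h. With a pseudocount of 200 bp, 0 members were called lower at 40 and 72 h. With peaks within 1 kb merged, 0 members were called higher at 24, 40 and 72 h. With a call at 1.5-fold, 3 members were higher at 24 h. Under these other settings the shares of all genes called at 24, 40 and 72 h were not computed. The member counts at those times therefore have no background. Network genes called lower at 120 h numbered 2 in the report, 4 with the 17497 widest peaks of each list, 7 above the median width and 6 at 1.5-fold, where 1.35%, 2.25%, 3.86% and 2.29% of all genes were called lower. Those called higher ranged from 9 to 18 around 12, where 27.1 to 50.4% of all genes were called higher. The median log2 ratio of all genes was 0.59 in the report, 0.48 with the widest peaks and 0.43 with merged peaks. The rank of Myb in E2 was 6 to 16 in the settings that cover the whole gene and 1801 at the gene ends. For sites, 2 members had one in the AM list of V5-Hoxa9-AM cells within 50 kb (4 within 100 kb). Within 250 kb, 2 had one in each V5 list of V5-ER-Hoxa9-AM cells. Where the member had to be the nearest protein-coding gene, 0 had one in the 3 lists of V5-ER-Hoxa9-AM cells. With the 258 widest sites of each list, 0 had one in either V5-Hoxa9-AM list. The shares of all genes with a site were not computed under these other site settings. The causes were not tested. A site in all 5 lists was found at 1 member also with 50% of the site overlapped. Peak lists without heights limit every value to what was called.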

Other observations

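Sites of tagged HOXA9 were also listed far beyond the 100 kb window of Myc, on its higher-coordinate side, past the noncoding gene Pvt1, where a cluster of Myc enhancers active in blood progenitors is known. This region was looked at after the data had been seen, its ends are its outermost sites, and it is given as values. Between 1507 and 1739 kb from Myc, 14 distinct sites lay within 232 kb (chromosome 15, 63497225 to 63729246). In V5-Hoxa9-AM cells 13 of them were V5 sites and 6 were AM sites. In V5-ER-Hoxa9-AM cells 4 were V5 sites and 1 an AM site in E2, and 1 was a V5 site at 72 h.

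One site of the cluster, chr15:63704328-63705319, was in all 5 lists. It was 992 bp wide, the widest of the 14, and lay 1714 kb from Myc. H3K4me3 overlapped it over 466 bp at 120 h and 0 bp in the other 4 lists. Pvt1, which lies between Myc and the cluster, covered 959 bp in E2, 1465, 1573 and 1836 bp at 24, 40 and 72 h and 1004 bp at 120 h. Like Myc, Pvt1 was shorter covered at 120 h than in the restored lists. Unlike Myc, it was shorter still in E2.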
